A study of Mus musculus with 2 samples.

Results

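The nuclear genes for complexes II to V of the mitochondrial respiratory system were examined in mouse erythroblasts, the nucleated precursors of red cells. Members were the protein-coding genes whose symbol begins with Uqcr, Atp5 or Cox4 to Cox8, the genes Sdha to Sdhd, and Cyc1 and Cycs. The rule found 49 genes among 21474 protein-coding genes, with no use of measured values: 4 in complex II, 9 in complex III with Cyc1, 18 in complex IV, 17 in complex V and Cycs itself. Polyadenylated RNA was sequenced as paired ends from Ter119-positive cells, Ter119 being an erythroid surface antigen, isolated from the liver of embryos at day 14.5. Male and female embryos were pooled, and the sources used here name no strain or genotype. The study has 1 group of 2 libraries, the biological replicates 1 and 2 of the labels, called library 1 and library 2 here. The labels list them as distinct biosamples under a single donor entry, and part of their spread may be technical.

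The respiratory chain passes electrons from metabolic substrates to oxygen and stores the energy as a proton gradient across the inner mitochondrial membrane. Complex II, succinate dehydrogenase, links the citric acid cycle to the chain; complex III passes electrons to the small heme protein cytochrome c; complex IV, cytochrome c oxidase, reduces oxygen; and complex V, ATP synthase, uses the gradient to make ATP. Erythroblasts also make heme in their mitochondria from succinyl-CoA, and lose these organelles as they mature into red cells.

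The libraries held 51190555 and 44256287 expected counts, and 8 globin genes took 86.0% and 84.4% of all TPM, a transcript abundance corrected for length and scaled to a fixed sum. All 9 erythroblast markers reached 1 TPM in both libraries, including the erythroid transcription factor gene Klf1 at 367 and 405 TPM. Of the hepatocyte markers 3 of 7 did so, with a sum over the 7 of 15.9 and 18.8 TPM, and of the macrophage markers 3 of 8, with sums of 11.4 and 18.0 TPM. No striated muscle marker did (0 of 4, sums of 0.25 and 0.29 TPM, Myh6 and Myh7 at 0), and none of 3 progenitor, 3 endothelial or 3 lymphoid markers did. Neutrophil markers did so in 3 of 6 (sums of 9.18 and 11.4 TPM) and megakaryocyte markers in 2 of 4 (10.5 and 13.2 TPM). The part of these other cells in the levels below was not tested, and in bulk RNA fewer expressing cells and less RNA per cell cannot be told apart. Levels are given as TPM in library 1 and library 2, with the mean ± SD over both (n = 2) where stated.

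Most of these genes were expressed, over a wide range of levels. Of the 49 members, 40 (81.6%) reached 1 TPM in both libraries and are called detected; the background over all protein-coding genes was 20.0% (4296 of 21474). The median of the mean TPM over all 49 members was 14.9, against 0.020 over all protein-coding genes, and that of the 40 detected members was 23.0, against 5.02 over detected protein-coding genes. Means ran from 1.86 TPM for Sdhd, a membrane anchor of complex II, to 835 TPM for Cox6a1, a subunit of complex IV, a 449-fold range. Among detected members 14 lay under 10 TPM, 20 between 10 and 100, and 6 at 100 or more.

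A few genes held most of the signal. The members summed to 2602 and 2682 TPM, which is 1.79% ± 0.098 of the TPM outside the globin genes. By expected counts, with no length correction, the share was 0.888%. Cox6a1 alone made up 29.4% and 33.8% of the members' sum, and the 6 highest members, Cox6a1, Cox5b, Uqcr11, Atp5b, Atp5d and Atp5g3, made up 77.3% and 72.3%. By complex, complex IV took 53.5% and 56.9% of the sum, complex V 27.9% and 27.1%, complex III 17.8% and 15.02%, and complex II 0.688% and 0.886%. Over protein-coding transcripts alone complexes V and III were close, with 0.282% and 0.278% of the TPM outside the globins, against 0.493% and 0.295% over all transcripts. For comparison, 32 of 35 nuclear complex I genes were detected (91.4%) with a median of 13.1 TPM over the 35, and 60 of 77 mitochondrial ribosomal protein genes (77.9%) with a median of 3.72 TPM over the 77.

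**Figure D1:**
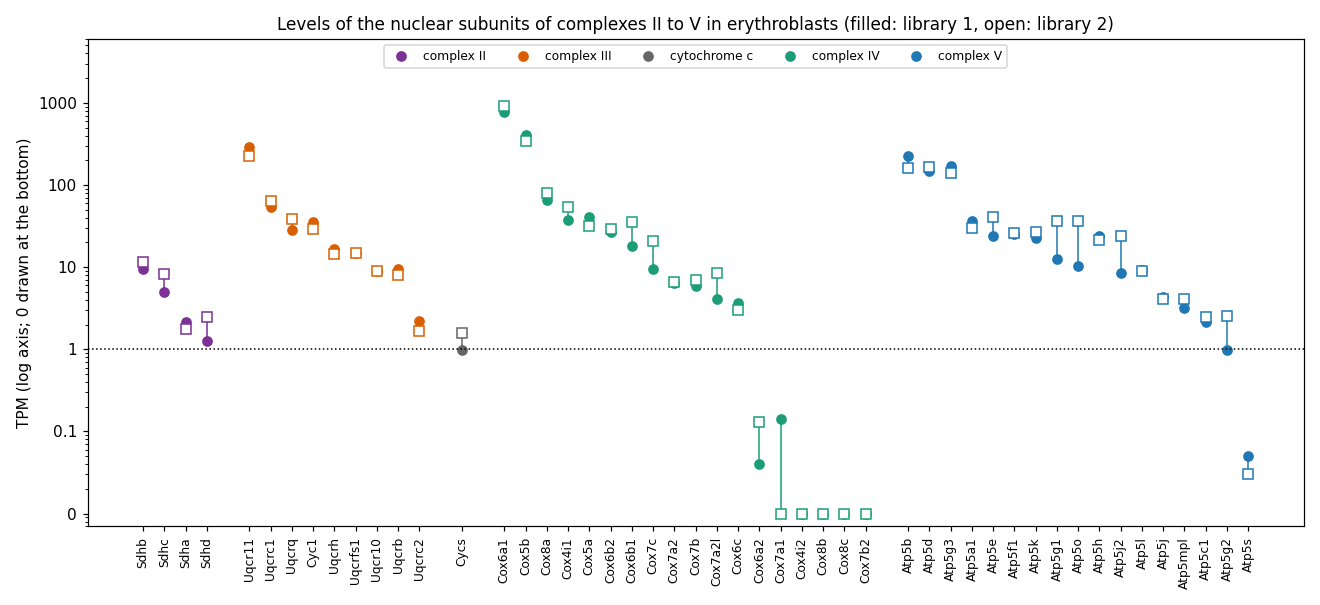
TPM (log axis) of each of the 49 members, ordered by mean level within its complex, in library 1 (filled circles) and library 2 (open squares); the dotted line is the detection threshold of 1 TPM and values of 0 sit at the bottom. Cox6a1, at 764 and 906 TPM, stands at the top, and 6 complex IV genes lie under the line.

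Complex II was the lowest of the 4 complexes, with all 4 genes detected and a median of 4.27 TPM. Sdhb, the iron-sulfur subunit, was listed at 9.48 and 11.4 TPM. Sdhc, which with Sdhd anchors the enzyme in the membrane and binds its heme, stood at 5.01 and 8.15 TPM. Sdha, the flavoprotein that oxidises succinate, stood at 2.13 and 1.77 TPM, and Sdhd at 1.28 and 2.44 TPM. The 4 proteins occur once each in the enzyme, while the TPM of Sdhb was 4.45 times that of Sdha in library 1 and 6.44 times in library 2. Over protein-coding transcripts Sdha stood at 1.27 and 1.41 TPM, level with Sdhd in library 1 and below it in library 2. Sdhb was highest and Sdhc next in both.

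All 9 genes of complex III were detected, with a median of 15.5 TPM. The highest was Uqcr11, a small supernumerary subunit, at 293 and 223 TPM. Uqcrc1, core protein 1, followed at 54.5 and 64.4 TPM. Its partner Uqcrc2, core protein 2, was the lowest at 2.21 and 1.67 TPM, so that the genes of this paired core differed 24.7-fold in library 1 and 38.6-fold in library 2. The difference was larger over protein-coding transcripts alone, at 84.2-fold and 85.4-fold. That sum leaves out a Uqcrc2 transcript with 47.45% and 30.24% of its TPM, which is absent from the annotation used (GENCODE M21), so its type is not known. By counts the difference was 46.6-fold and 58.8-fold. The catalytic genes lay between these ends: Cyc1, the heme protein cytochrome c1, at 35.0 and 28.9 TPM, and Uqcrfs1, the Rieske iron-sulfur protein, at 14.9 in both. Uqcrq, another supernumerary subunit, had the highest mean after Uqcrc1, at 28.6 and 38.3 TPM, though it lay below Cyc1 in library 1. Over protein-coding transcripts the mean of Uqcrq was 18.1 TPM, below that of Cyc1 at 31.9 TPM. Uqcrh, the hinge protein, Uqcr10 and Uqcrb lay between 8.13 and 16.6 TPM.

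Cycs, the somatic cytochrome c that carries electrons from complex III to complex IV, missed detection in library 1, with 0.97 TPM there and 1.56 TPM in library 2, from 143 and 179 counts. A retained-intron transcript took 59.0% and 58.8% of that level, and over protein-coding transcripts Cycs stood at 0.40 and 0.64 TPM. The level of Cyc1 was 36.1 and 18.5 times that of Cycs over all transcripts, and 87.6 and 45.1 times over coding ones. Of the 31-base words of Cycs, 29.4% also occur in other genes, so part of its counts rests on how the authors' quantifier divided shared reads. The testis cytochrome c gene Cyct had no counts.

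In complex IV 12 of 18 genes were detected, with a median of 6.515 TPM over the 18 and 27.2 TPM over those 12. Cox6a1, the liver-type form of subunit VIa, reached 764 and 906 TPM and ranked 18 by mean TPM among protein-coding genes outside the globins. Cox5b, a zinc-binding subunit on the matrix side, followed at 409.8 and 344 TPM. Next, far below both, came Cox8a, the ubiquitous form of subunit VIII, at 65.6 and 79.3 TPM. Cox5b was 10.1 and 10.8 times as high as Cox5a, its neighbour in the complex. Cox6a1 was 20.3 and 16.7 times as high as Cox4i1, the ubiquitous form of subunit IV, which stood at 37.7 and 54.1 TPM. The lowest detected member of this complex was the membrane subunit Cox6c, at 3.69 and 3.04 TPM.

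Several complex IV subunits are encoded by paralogs with different tissue patterns, and most of these families were held by 1 gene. Cox4i1, Cox8a and Cox7b carried all of their families' TPM, since Cox4i2, Cox8b, Cox8c and Cox7b2 had no counts in either library. A count of 0 was read as at most 3 counts in each library, the one-sided 95% upper limit of a Poisson count, which is 0.0586 and 0.0678 CPM (counts scaled to library size) by counting error only. Cox6a1 held 99.99% of its family, against 2 and 5 counts of the muscle form Cox6a2. The muscle form Cox7a1 had 3 and 0 counts. All 6 of these paralogs that are known from muscle, lung or testis stayed under 1 TPM, at most at 0.14 TPM.

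Cox6b2 did not follow that pattern. This gene is known as the testis form of subunit VIb, and it was listed at 26.8 and 28.8 TPM, from 1058 and 900 counts. The somatic form Cox6b1 stood at 18.0 and 35.3 TPM, so that Cox6b2 held 59.9% of the family in library 1 and 44.9% in library 2. The order of the pair thus differed between the libraries. Over protein-coding transcripts alone the ratio of Cox6b1 to Cox6b2 was 0.978 and 1.68. No 31-base word of Cox6b2 occurs in another gene, its counts were whole numbers and no other annotated gene overlaps it (mm10 chromosome 7, 4751792 to 4753094, minus strand). Its leading transcript, the protein-coding Cox6b2-203, took 57.2% and 59.2% of its TPM, and a retained-intron transcript took 31.03% and 26.4%. In the Cox7a family, Cox7a2, the liver-type form, stood at 6.40 and 6.65 TPM and held 59.9% and 44.2%. Cox7a2l, a homolog that acts in supercomplex assembly, stood at 4.14 and 8.39 TPM and held nearly all of the rest. By counts Cox7a2l held 50.03% and 65.8%, and Cox7a2 49.6% and 34.2%. The counts of Cox7a2l were not whole, and 16.6% of its 31-base words occur in other genes.

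**Figure D2:**
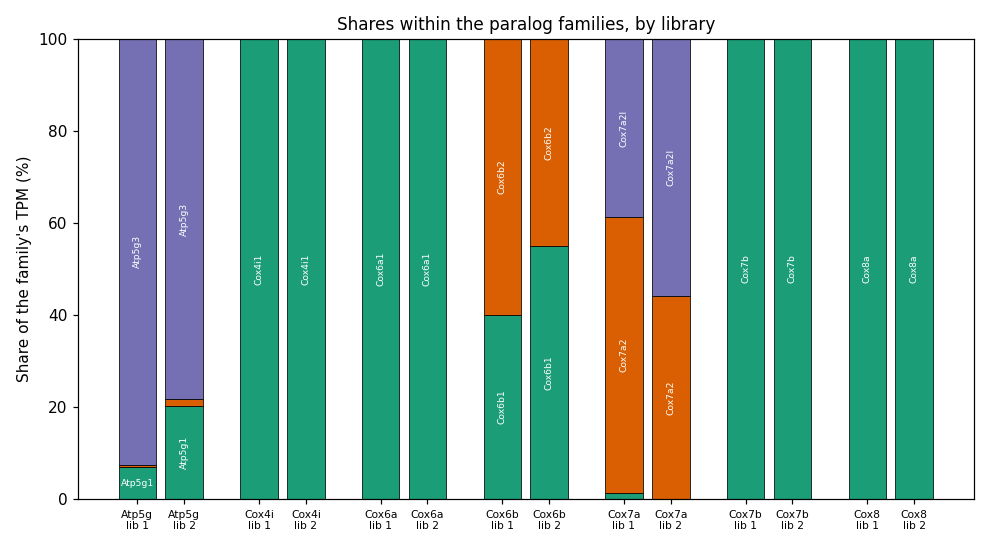
Share of each paralog family's TPM (%) taken by its genes, with 1 stacked bar per library. Cox4i, Cox6a, Cox7b and Cox8 are filled by 1 gene, while Cox6b2 holds 59.9% and 44.9% of the Cox6b bars and Atp5g3 holds 92.5% and 78.3% of the Atp5g bars.

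The upstream sequences of Cox6a1, the highest member, and of the Cox6b pair are shown because Cox6b2, unlike the other paralogs known from testis, was expressed beside its somatic form. Each is the 200 bases before the RefSeq transcription start (GRCm38.p6), 5′ to 3′ on the gene's strand, at chr5:115348959-115349158, chr7:30626115-30626314 and chr7:4753095-4753294, all on the minus strand. Capitals mark matches to the core motif of NRF1 (CATGCGC), here a palindrome hit on both strands, and to that of the ETS factors with GABP (CCGGAAG).
Cox6a1: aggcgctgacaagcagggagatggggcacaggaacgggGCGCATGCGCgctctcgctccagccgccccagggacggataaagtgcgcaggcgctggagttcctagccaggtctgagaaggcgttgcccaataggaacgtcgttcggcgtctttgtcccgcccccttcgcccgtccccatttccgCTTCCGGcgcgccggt
Cox6b1: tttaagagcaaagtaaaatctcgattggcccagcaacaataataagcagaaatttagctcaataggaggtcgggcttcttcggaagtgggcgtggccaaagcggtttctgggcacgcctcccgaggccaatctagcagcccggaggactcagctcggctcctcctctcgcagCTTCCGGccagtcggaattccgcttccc
Cox6b2: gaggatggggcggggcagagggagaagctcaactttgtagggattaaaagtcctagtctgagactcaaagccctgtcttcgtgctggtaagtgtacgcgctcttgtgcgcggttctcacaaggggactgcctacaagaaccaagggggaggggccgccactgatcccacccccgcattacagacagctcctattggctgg

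Cox6a1 holds both motifs, Cox6b1 holds the ETS core, and neither these nor the YY1 core (AAGATGG) is found in Cox6b2. A match is a description of letters, and no binding was measured here. RefSeq promoters, taken from 250 bases before to 50 after the start, were matched for 37 members. The NRF1 core was in 9 of them (24.3%), against 4.41% of all genes with a promoter and 3.91% of all 32851 promoters. The ETS core was in 12 (32.4%), among them Sdhb, Uqcr11, Cox8a and Atp5e, against 9.93% of genes and 8.86% of promoters. The YY1 core was in 4 (10.8%), against 7.28% of genes and 6.34% of promoters. In the bases before the start alone it was in 1 member (2.70%), against 5.18% of genes, so that this share turned from above to below the background. Among the 31 detected members with a promoter, 22.6% held the NRF1 core, 38.7% the ETS core and 12.9% the YY1 core, and among other detected genes 9.65%, 25.5% and 10.3%. Of the genes for these factors, Nrf1 stood at 3.09 and 3.59 TPM, Yy1 at 5.17 and 5.78, and Gabpa at 0.25 and 0.20.

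Complex V had 15 of 17 genes detected and a median of 23.5 TPM over the 17. Atp5b, the catalytic beta subunit of the F1 head, had the highest mean, at 225 and 162 TPM. Atp5d, the delta subunit of the central stalk, reached 149.5 and 164 TPM, above Atp5b in library 2. By counts Atp5d was the higher in both libraries, with 15946 and 12988 against 6661 and 4642. Atp5g3, which codes for the c subunit of the membrane rotor, reached 168 and 139 TPM. Atp5a1, the alpha subunit that alternates with beta in the head, stood at 36.7 and 29.8 TPM. The lowest detected gene was Atp5c1, the gamma subunit that turns inside the head, at 2.12 and 2.47 TPM, below Atp5d by 70.5-fold and 66.5-fold. Atp5s, coupling factor B, had 6 and 3 counts and was not detected. The other members lay between 3.21 and 40.7 TPM, apart from Atp5g2. The ATP synthase inhibitor gene Atpif1, which the symbol rule does not take, stood at 104.6 and 117.5 TPM.

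The c subunit is encoded by 3 genes that give the same mature protein. Atp5g3 held 92.5% and 78.3% of their TPM, Atp5g1 6.92% and 20.3%, and Atp5g2 0.538% and 1.44%. Atp5g1 stood at 12.6 and 36.0 TPM. Atp5g2, at 0.98 and 2.55 TPM, shares 40.2% of its 31-base words with other genes, and its level is uncertain for that reason. Atp5g3 was the highest of the 3 in both libraries, by a margin that differed between them. Their upstream sequences are shown to set the genes side by side, at chr2:73911327-73911526, chr11:96075632-96075831 and chr15:102671048-102671247, minus strand, with the NRF1 core in capitals.
Atp5g3: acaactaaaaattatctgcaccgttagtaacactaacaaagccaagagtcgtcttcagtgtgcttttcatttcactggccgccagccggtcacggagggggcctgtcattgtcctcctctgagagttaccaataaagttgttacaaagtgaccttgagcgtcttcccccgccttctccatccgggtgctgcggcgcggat
Atp5g1: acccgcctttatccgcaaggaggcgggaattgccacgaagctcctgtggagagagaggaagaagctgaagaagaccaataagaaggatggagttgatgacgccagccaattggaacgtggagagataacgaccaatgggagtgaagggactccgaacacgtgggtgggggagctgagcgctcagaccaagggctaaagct
Atp5g2: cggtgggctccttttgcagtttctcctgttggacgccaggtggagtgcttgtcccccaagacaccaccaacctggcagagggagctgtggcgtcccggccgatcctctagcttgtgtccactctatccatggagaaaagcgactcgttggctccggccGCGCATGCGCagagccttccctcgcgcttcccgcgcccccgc

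The NRF1 core is in the Atp5g2 sequence, the lowest of the 3 genes, and none of the 3 cores is in the promoters of Atp5g3 or Atp5g1.

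Gene levels in TPM depended on which transcripts the quantifier filled, since a short transcript gains TPM per read. Of 42 members with 50 or more counts in both libraries, 33 had more than 1 transcript. In 8 of these the leading transcript by TPM was not annotated as protein coding (Uqcrq, Uqcrc2, Cycs, Cox7b, Atp5b, Atp5g3, Atp5a1 and Atp5h; that of Uqcrc2 is absent from GENCODE M21), and by counts in 3 (Atp5b, Atp5g3 and Atp5h). In Atp5b the 343-base Atp5b-207, which spans 128083306 to 128084086 on chromosome 10, took 89.8% and 86.4% of TPM but 59.7% and 47.4% of counts. Over protein-coding transcripts alone Atp5b stood at 15.3 TPM and ranked 20 among the members instead of 4. Atp5a1 then stood at 8.23 TPM and Atp5h, the d subunit of the peripheral stalk, at 3.57 TPM. Cox6a1, Cox5b and Uqcr11 were the 3 highest by either measure. In 27 of the 40 detected members coding transcripts held 90% or more of TPM, and in 6 under 50%. No such counts over all genes are given here, so these are not shown to be a trait of the members. Over all detected protein-coding genes the median was 5.02 TPM, and 3.475 TPM over coding transcripts alone.

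**Figure D3:**
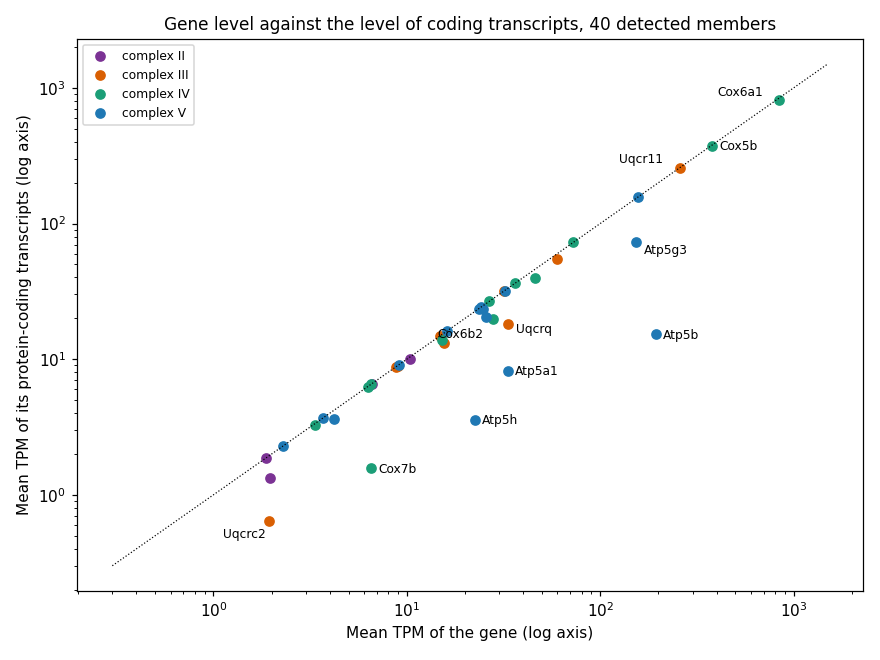
Mean TPM of each of the 40 detected members (x, log axis) against the mean TPM of its protein-coding transcripts (y, log axis), over 2 libraries; the dotted line marks equality. Most genes lie on the line, while Atp5b falls to 15.3 TPM and Atp5h to 3.57 TPM.

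The 2 libraries ordered the members alike, with a Spearman correlation of 0.94 across the 40 detected genes, which share their libraries. Expected counts were compared by a two-sided exact conditional binomial test with Benjamini-Hochberg adjustment over 10955 genes. It weighs counting error between these 2 libraries alone, and no condition differs between them. Of 42 members tested 28 differed, 16 higher in library 2 (background 22.4%) and 12 higher in library 1 (background 22.5%), and 44.9% of all genes tested differed either way. Among the 40 members that had at least 100 counts in each library 27 differed, against 58.3% of all 5257 such genes. The median size of the log2 ratio over these 40 was 0.21, and 0.21 over the 5257 genes. The typical size of a difference was thus alike in the members and in all genes.

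With a pseudocount of 1 CPM, 3 members differed with a log2 ratio of scaled CPM of 1 or more, all in complex V and higher in library 2, with a background of 1.02%. With a pseudocount of 0.1 CPM the complex IV gene Cox7c joined them, and the background rose to 6.35%. Atp5g1 went from 12.6 to 36.0 TPM, a log2 ratio of 1.37 (adjusted p = 1.027e-109, exact test). Of its 31-base words 12.9% occur in other genes and its counts were not whole, so part of them rests on how shared reads were divided. Its transcript Atp5g1-203 stood at 5.97 and 31.3 TPM, and Atp5g1-202 at 6.52 and 4.50 TPM. Atp5o, the OSCP subunit that joins the peripheral stalk to the head, stood at 10.4 and 36.7 TPM with a log2 ratio of 1.26 (adjusted p = 8.785e-95, exact test), or 1.72 on log2(TPM + 1). Of its 31-base words 49.6% occur in other genes, its counts were not whole and other annotated genes overlap it, so its level is uncertain. Its transcript Atp5o-201 stood at 10.3 and 21.9 TPM and the shorter coding transcript Atp5o-205 at 0.17 and 14.6 TPM. Atp5j2, the membrane subunit f, stood at 8.44 and 23.8 TPM with a log2 ratio of 1.21 (adjusted p = 5.289e-47, exact test). Cox7c, a membrane subunit of complex IV, followed at 9.46 and 20.97 TPM with a log2 ratio of 0.93 (adjusted p = 1.002e-25, exact test), or 1.01 with the smaller pseudocount. Its level is uncertain as well, since 24.55% of its 31-base words occur in other genes. The counts of Cox7c were not whole and another annotated gene overlaps it. Cox6b1 had a log2 ratio of 0.78 (adjusted p = 5.146e-29, exact test).

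In the other direction no member reached a log2 ratio of -1 with either pseudocount (background 0.548% with 1 CPM and 5.21% with 0.1 CPM). Uqcr11 had a log2 ratio of -0.53 (adjusted p = 4.152e-101, exact test). Cox5a, the matrix-side subunit beside Cox5b, stood at 40.7 and 31.9 TPM with a log2 ratio of -0.49 (adjusted p = 6.302e-23, exact test). Atp5g3 had a log2 ratio of -0.44 (adjusted p = 6.427e-80, exact test), opposite in sign to Atp5g1. Cyc1 had -0.43 (adjusted p = 1.250e-29, exact test) and Cox5b -0.42 (adjusted p = 3.330e-116, exact test). Within the Cox6b pair the log2 ratio of Cox6b2 was -0.04 (adjusted p = 0.642, exact test), beside 0.78 for Cox6b1.

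**Figure D4:**
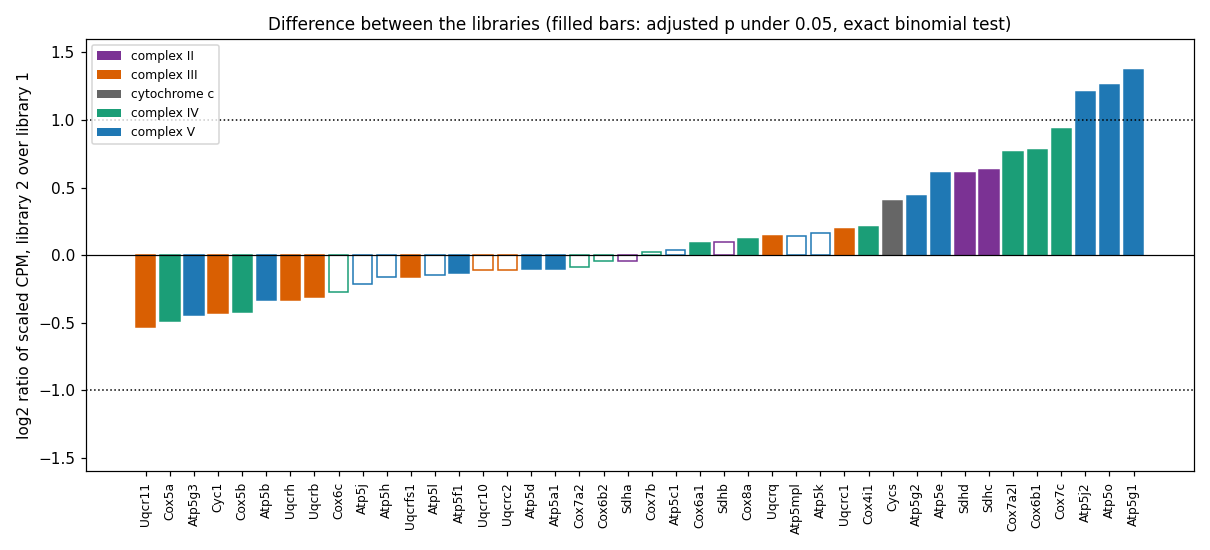
Log2 ratio of scaled CPM, library 2 over library 1, for the 42 members tested; filled bars passed an adjusted p of 0.05 in the exact binomial test and dotted lines mark ratios of 1 and -1. With the pseudocount of 1 CPM used here, Atp5g1, Atp5o and Atp5j2 pass the upper line and no member passes the lower one.

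Among detected members, level also went with base composition. The Spearman correlation of mean TPM with the GC content of the transcripts was 0.56 over the 40 detected members and 0.60 with the TPM of coding transcripts. Over all 4296 detected protein-coding genes it was 0.23. Without the detection threshold it was 0.34 over the 49 members and 0.30 over all 21474 protein-coding genes. These are descriptions across genes, which share libraries and are not replicates. The 20 detected members with at least 50% GC had a median of 32.1 TPM and the 20 below it 7.66 TPM. Cox6a1 (60.8% GC), Uqcr11 (59.1%) and Atp5d (59.4%) were high in both, whereas Atp5g3 (46.7%) was high with a low GC content and Cyc1 (60.5%) was intermediate in level. Whether base composition affects recovery in these libraries was not tested.

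**Figure D5:**
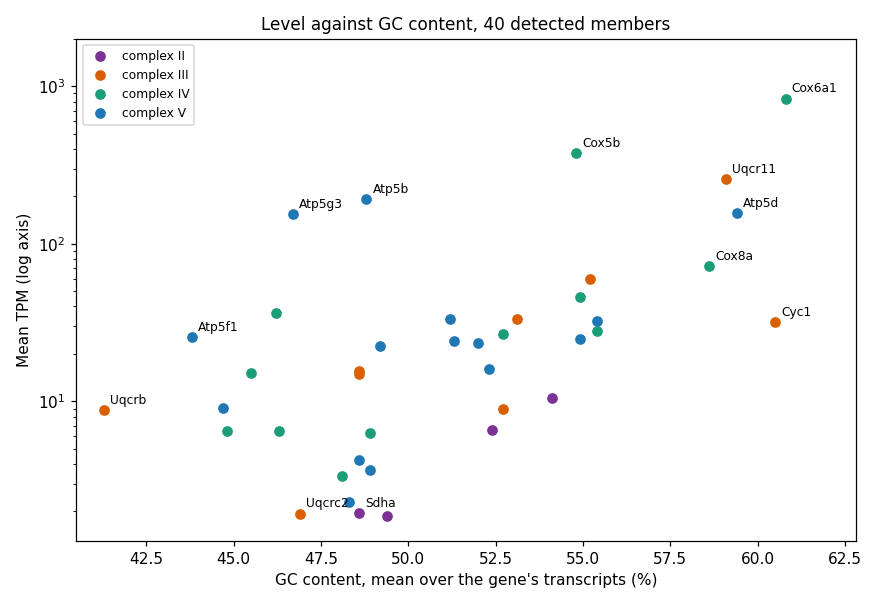
Mean TPM (log axis) of the 40 detected members over 2 libraries against the GC content of their transcripts (%), coloured by complex. Cox6a1 stands at the upper right with 60.8% GC, and Atp5g3 lies high at 46.7% GC.

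Assembly factors were lower as a list than the subunits. Of 37 assembly factors 18 were detected, with a median of 1.14 TPM over the 37. The highest was Cox17, a copper chaperone for complex IV, at 131 and 90.4 TPM. Uqcc2, which acts in making cytochrome b of complex III, followed at 26.3 and 27.2 TPM, and Cmc2, of complex IV, at 21.4 and 14.4 TPM. None of the 4 complex II assembly factors reached 1 TPM in both libraries. Sdhaf1 was the highest at 0.48 and 0.50 TPM, from 110 and 90 counts, so missing this threshold does not mean absence. The subunits of complexes III to V encoded in the mitochondrial genome were listed at a median of 89.9 TPM over 6 genes, led by mt-Atp8 at 212 and 162 TPM. Among these, mt-Co2 was higher in library 2, at 25.7 and 109 TPM, and mt-Atp6 higher in library 1, at 154 and 76.9 TPM. The counts of mt-Co2 and mt-Atp6 were not whole, so part of them rests on how shared reads were divided. Both differences are therefore given as listed only. Another of the 6, mt-Co3, was listed at 0 and 0.050 counts, although it is a gene that respiring cells use, so it is given as listed only. Ndufa4, a small protein of complex IV outside the symbol rule, stood at 2.31 and 3.02 TPM.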

How the data were processed

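The authors deposited gene and transcript tables for each of the 2 libraries, with reads assigned to mm10 and GENCODE M4, per the listing deposited with them. For the aligner, quantifier and strand setting the entry is: not given in the sources used here. Expected counts, as deposited, divide reads shared between genes and need not be whole. The deposited TPM and FPKM values are corrected for length, and the deposited percent gives each transcript's part of its gene's TPM; FPKM served as an alternative. Gene tables held 69691 rows, 43346 of them Ensembl genes; the 26345 other rows held 0 counts and were left out.

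Symbols, biotypes, positions and GC content came from GENCODE M21 on the same assembly, and promoters from RefSeq (GRCm38.p6); 12 members had no promoter entry. The members and gene lists were chosen with earlier results of these data known. Every member could be named; full values were given for the 3 highest and the lowest detected gene of each complex, the paralog families, Sdha to Sdhd, Cycs, Cyc1 and the 5 largest differences in each direction, and of the other lists mainly the highest and lowest. Atpif1, Ndufa4, mt-Co2, mt-Atp6, mt-Co3 and the genes of the promoter factors were chosen after their values were seen.

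Expected counts were rounded to whole numbers and scaled with TMM factors from edgeR 4.0.16, run in R 4.3.3. Genes whose counts summed to at least 10 over the 2 libraries were tested by the exact binomial test, with a pseudocount of 1 CPM in log2 ratios; with 1 library a side no quasi-likelihood test could be fitted. The 2 libraries differed by more than counting error, so they were kept as separate samples. Shared sequence was measured in 31-base words over M21 transcripts, and a count was whole within 0.01. Intervals and floors cover counting error only. Other steps used Python 3.11.15, pandas 2.3.3 and scipy 1.17.1. Alternatives were DESeq2 1.42.0 size factors, total counts, other minima and pseudocounts, FPKM, posterior mean TPM, counts, each library alone and other promoter windows; coding transcripts alone, Atpif1 and Usmg5 (Atp5md in RefSeq) as members, and a pseudocount of 0.1 CPM in the count of larger differences, were added after the data were seen.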

Additional observations from a re-analysis of the deposited data

How the results depend on the processing

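No paired analysis was possible because the series has 1 group. Of the alternatives to the main summary values 68 moved a level or share by less than 1 SD of the 2 libraries, or a count by at most 1.5-fold, and 22 moved it further. For a share, either library alone lies within 1 SD of the mean of both by arithmetic. Those alternatives were bound to fall among the 68 and are no sign of stability. The Atp5g3 share, at 92.5% in library 1 and 78.3% in library 2, is such a case. The median level of the members was 23.0 TPM over detected members alone, 9.13 over coding transcripts alone, and 9.46 to 14.3 in single libraries. The share of TPM outside the globins was 0.888% by counts, 1.69% by posterior mean TPM and 1.53% over coding transcripts. For complex III it was 0.163% by counts. For complex IV it was 0.409% by counts, 0.932% by posterior mean TPM and 0.955% over coding transcripts. For complex V it was 0.3001% by counts and 0.282% over coding transcripts, against 0.493%. With a log2 ratio of 1 required, 3 members were higher in library 2 and 0 in library 1, and with a pseudocount of 0.1 CPM, added after the data were seen, 4 and 0. Over coding transcripts Atp5g3 held 74.6% of its family. By posterior mean TPM, Cox4i1 held 99.92%, Cox7b 99.56% and Cox8a 99.88%. Leading transcripts that were not protein coding numbered 3 by counts. With the upstream window alone, 1 member (2.70%) held the YY1 core, below its background. On the log2(TPM + 1) scale, 3 called members changed sign: Uqcrfs1 at 0.00 (from -0.16), Atp5d at 0.14 (from -0.10) and Atp5f1 at 0.03 (from -0.13). On that scale the median ratio of detected genes was 0.12, and the cause was not tested. The test between the libraries holds no spread between samples, so its p-values take no account of the biological coefficient of variation between them, 0.240 over 9043 genes.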
